A study of Mus musculus with 4 samples.

Results

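The TNF superfamily comprises membrane-bound or shed ligands of the tumour necrosis factor type and the receptors that bind them. Its members were followed here in an Ikaros-null T-cell line after Ikaros activity was restored. They were taken by name: every gene whose array symbol begins with Tnfsf or Tnfrsf and a number, together with *Fas*, *Fasl*, *Tnf*, *Lta*, *Ltb*, *Ltbr*, *Cd40*, *Cd40lg* and *Cd70*, and only where a probe set carries 1 gene symbol. This gave 38 of the 19938 genes on the array, 15 ligands and 23 receptors, each read by 1 probe set. The rule uses no expression value, but it was chosen with earlier results of these data known.

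The cells were ILC87-Ik1-ER, a line that grew out of a thymic tumour of an Ikaros f/f Lck-cre+ mouse, in which the Lck promoter drives Cre in developing T cells. The sample labels give the strain as C57BL/6, while the study's methods describe mice of this genotype as being of a mixed background. A MigR1 retrovirus gave them Ik1-ER, a fusion of full-length Ikaros-1 with the ligand-binding portion of the oestrogen receptor, with GFP translated from an IRES, and GFP+ cells were sorted as a stable line. 2 arrays were of cells given the vehicle ethanol (EtOH) and 2 of cells given 100 nM 4-hydroxytamoxifen (4OHT), each for 24 h. All 4 therefore carry the Ikaros deletion and Ik1-ER, and they come from 1 line of 1 tumour. No array of 4OHT-treated cells without Ik1-ER was analysed here, so that effects of 4OHT itself and of active Ikaros cannot be told apart. Whether the arrays of a treatment stand for separate cultures is not stated in the labels. The p-values therefore reflect the scatter of these samples alone, which may be technical.

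Most ligands of this family are trimers that cluster their receptors on a neighbouring cell. Receptors with a cytoplasmic death domain can assemble caspase-activating complexes, whereas the others recruit TRAF adaptors and chiefly activate NF-κB, JNK and survival pathways, and a few members bind ligand without signalling. In T cells the family delivers costimulation and limits the life of activated cells, and in the thymus RANK ligand and lymphotoxins made by T-lineage cells instruct the medullary epithelium.

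Ikaros proteins bind DNA at sites with a GGGAA core, and AGGAA is the motif named in the study. Promoter sequence is shown for the members with the largest change on either side of 0 and for the ligand that passed the test, so that the letters can be read beside their levels. These were chosen after their values were seen. *Tnfrsf26*, which had the largest increase, is not in the promoter table, and *Fas*, next after it, is shown. Each run is the 250 bases before the start of the gene in RefSeq (build GRCm38.p6), 5′ to 3′ on the strand of the gene, with every GGGAA or AGGAA on either strand in capitals (TTCCC and TTCCT are the opposite strand). *Tnfsf11* lies at chr14:78308044-78308293 (minus strand), *Tnfrsf8* at chr4:145315165-145315414 (minus strand) and *Fas* at chr19:34290409-34290658 (plus strand).
Tnfsf11: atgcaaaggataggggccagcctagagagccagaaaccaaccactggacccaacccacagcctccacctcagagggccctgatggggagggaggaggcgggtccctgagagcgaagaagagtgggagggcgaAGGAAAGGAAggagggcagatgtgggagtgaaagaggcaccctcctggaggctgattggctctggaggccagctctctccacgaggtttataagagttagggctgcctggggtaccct
Tnfrsf8: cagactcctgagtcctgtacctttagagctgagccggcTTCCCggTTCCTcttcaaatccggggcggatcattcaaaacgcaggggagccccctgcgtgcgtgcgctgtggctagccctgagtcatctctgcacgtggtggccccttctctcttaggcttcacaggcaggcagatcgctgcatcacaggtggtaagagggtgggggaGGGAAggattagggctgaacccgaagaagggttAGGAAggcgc
Fas: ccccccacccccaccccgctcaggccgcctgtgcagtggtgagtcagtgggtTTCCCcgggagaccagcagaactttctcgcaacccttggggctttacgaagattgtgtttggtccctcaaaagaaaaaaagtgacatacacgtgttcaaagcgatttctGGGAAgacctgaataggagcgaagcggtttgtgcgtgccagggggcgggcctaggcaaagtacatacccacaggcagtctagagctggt
The *Tnfsf11* window holds 2 AGGAA, which follow each other directly, and no GGGAA. The *Tnfrsf8* window holds 2 of each motif, and that of *Fas* holds 2 GGGAA and no AGGAA. Such short words are common: 56.2% of 32817 RefSeq promoter windows of the same length hold GGGAA, and 60.3% hold AGGAA. Of the 33 windows of the 29 members in the table, 24 hold GGGAA and 25 hold AGGAA. A match describes the letters and is no evidence of binding.

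After 4OHT treatment 1 of the 38 members fell and 1 rose (limma, Benjamini-Hochberg adjusted p under 0.05 over all 35556 probe sets). *Tnfsf11*, which encodes RANK ligand, was 1.38-fold lower, and *Tnfrsf26*, a receptor whose signalling was not assigned here, was 1.81-fold higher. Of all 19938 genes, 2.99% were called lower and 1.23% higher, so that the called shares of the family are near the background. An unadjusted p under 0.05 was reached by 17 members, 44.7% of the family against 20.4% of all genes, with 7 lower and 10 higher. Both 4OHT arrays lay below both EtOH arrays in 13 members and above them in 16, where the shares over all genes are 24.5% and 32.1%. The median change over the members was 0.07 on the log2 scale and that of all genes 0.03, and the median size of the change, taken without its sign, was 0.20 against 0.11. All log2 values and differences below are on the RMA scale.

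Ligands and receptors were also counted apart. Of the 15 ligands, 8 had both 4OHT arrays below the EtOH arrays, 4 had them above and 3 overlapped, with a median change of −0.06. Of the 23 receptors, 5 lay below, 12 above and 6 overlapped, with a median of 0.14. Groups were apart in 80% of the ligands and 73.9% of the receptors, against 56.6% of all genes. The difference between ligands and receptors was not tested.

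**Figure D1:**
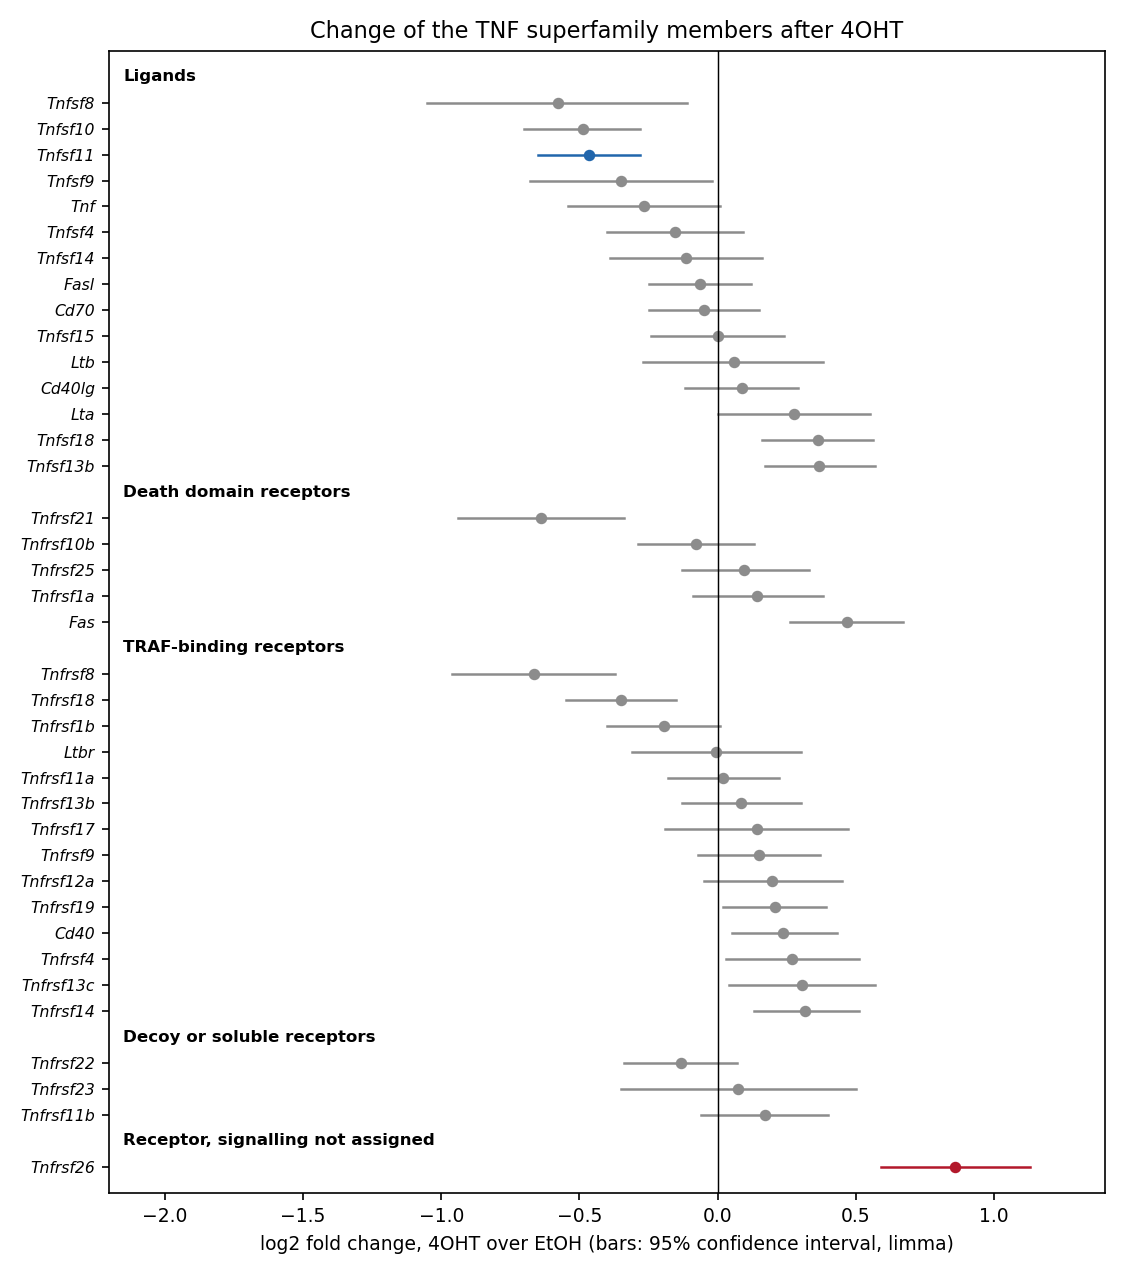
Change of each of the 38 members on the log2 scale (4OHT over EtOH, horizontal axis) by role, as points with 95% confidence intervals from limma (2 arrays per treatment). The members that passed the test, Tnfsf11 (blue, −0.47) and Tnfrsf26 (red, 0.86), stand among grey points between −0.67 and 0.47.

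Among the ligands, *Tnfsf11* had log2 values of 9.22 and 9.23 on the EtOH arrays and 8.74 and 8.78 on the 4OHT arrays. The arrays of a treatment were close together, and the groups did not overlap. The log2 fold change was −0.47 (standard error 0.071, 95% confidence interval −0.65 to −0.28, adjusted p = 0.0497 from limma), at the edge of the threshold. Among the alternatives counted next, the threshold of 0.1 is the same fit, so that a gene called at 0.05 had to pass it. It passed in 3 of the 11 alternative settings without a block, with adjusted p from 0.00258 to 0.236 over all alternatives and a negative sign in every one. It did not pass with any 1 of the 4 arrays left out, but in those fits calls fell over all genes as well. Its change there ran from −0.49 to −0.44.

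*Tnfsf10* encodes TRAIL, a ligand of death receptors. Its values were 8.25 and 8.37 with EtOH and 7.80 and 7.84 with 4OHT, without overlap, and the log2 fold change of −0.49 did not pass the test (adjusted p = 0.0591 from limma). *Tnfsf8*, the ligand of CD30, had 5.65 and 6.11 with EtOH and 5.40 and 5.21 with 4OHT. Both 4OHT values were the lower ones, but the EtOH arrays lay far apart, the change was −0.58 and the adjusted p was 0.194 (limma). Its change ran from −0.35 without EtOH replicate 2 to −0.81 without EtOH replicate 1. *Tnfsf9*, whose product is the ligand of the costimulatory receptor CD137, had 6.21 and 6.28 against 5.73 and 6.05, a change of −0.35 (adjusted p = 0.252 from limma) that was −0.19 without 4OHT replicate 1 and −0.51 without 4OHT replicate 2.

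In the other direction, *Tnfsf13b*, which encodes the B-cell survival factor BAFF, had 6.36 and 6.28 with EtOH and 6.66 and 6.72 with 4OHT. *Tnfsf18*, the ligand of GITR, had 4.94 and 4.85 with EtOH and 5.27 and 5.25 with 4OHT. For both genes the 4OHT arrays were the higher ones and lay close together, at changes of 0.37 and 0.36, and neither passed the test (adjusted p = 0.0947 and 0.0951 from limma). Since there are no detection calls, levels as low as those of *Tnfsf8* and *Tnfsf18* may be background. The other 9 ligands had changes between −0.27 (*Tnf*) and 0.28 (*Lta*), with adjusted p of at least 0.263 (limma). Their groups overlapped in 3 and were apart in 6 (66.7%, against 56.6% of all genes).

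**Figure D2:**
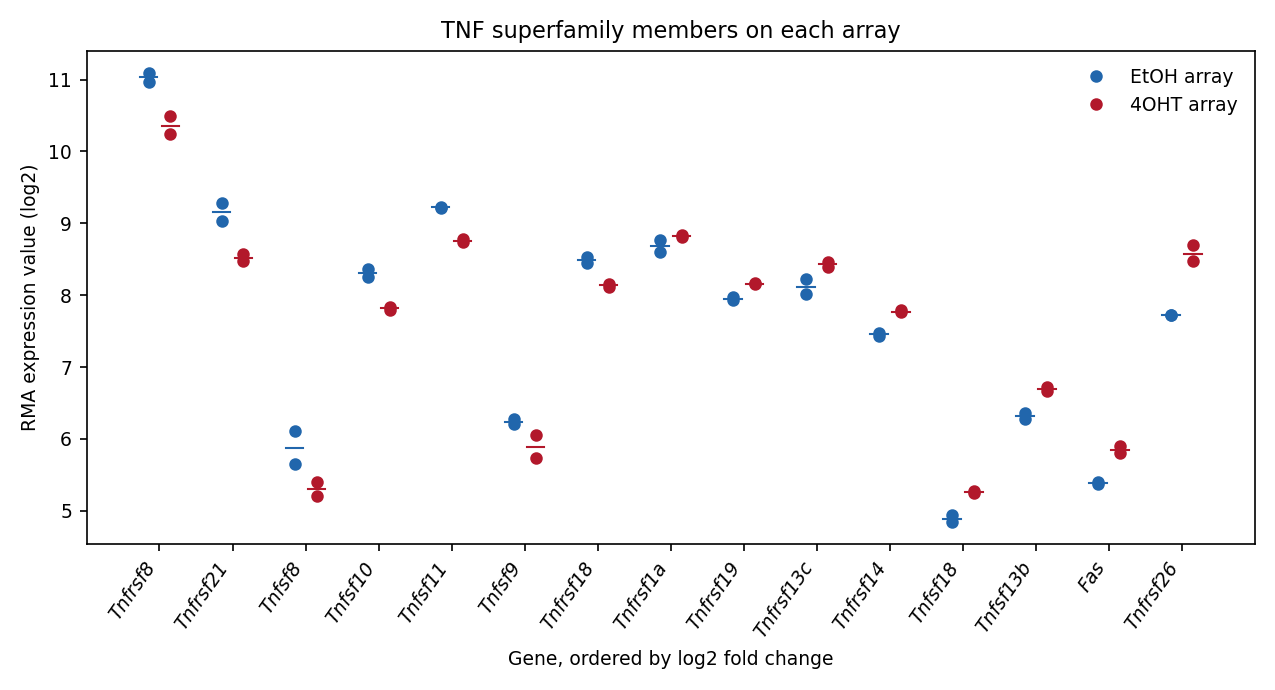
RMA expression value (log2, vertical axis) of the 15 members described singly on each EtOH (blue) and 4OHT (red) array, ordered by log2 fold change, with short lines at the means of 2 arrays. In all 15 the colours do not overlap, which the choice of these members favours; the gap is widest for Tnfrsf26 at the right (0.86) and Tnfrsf8 at the left (−0.67). Heights of different genes are not comparable, since each probe set has its own brightness.

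Of the 5 death domain receptors none passed the test (limma), and 2 had an unadjusted p under 0.05 (40%, against 20.4% of all genes). *Tnfrsf21*, which encodes death receptor DR6, had 9.03 and 9.29 with EtOH and 8.47 and 8.57 with 4OHT. Its log2 fold change of −0.64 is a 1.56-fold lower mean, at an adjusted p of 0.0724 (limma). *Fas*, the receptor through which Fas ligand kills activated lymphocytes, had 5.37 and 5.40 with EtOH and 5.90 and 5.81 with 4OHT. The 4OHT arrays were both higher, by 1.38-fold in the mean, and the change of 0.47 missed the threshold (adjusted p = 0.0592 from limma). The mean level of *Fas* was 5.62, which may be background, since there are no detection calls. *Tnfrsf1a*, the TNF receptor found on most cells, had 8.60 and 8.77 against 8.81 and 8.84, a change of 0.14 (adjusted p = 0.458 from limma) and thus smaller than the gap between its EtOH arrays, with 0.06 without EtOH replicate 1 and 0.22 without EtOH replicate 2. *Tnfrsf10b*, the mouse TRAIL receptor with a death domain, and *Tnfrsf25*, the receptor of the *Tnfsf15* product, had overlapping groups with changes of −0.08 and 0.10.

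The TRAF-binding receptors were 14, of which 3 had both 4OHT arrays below, 8 above and 3 overlapping. Over all genes 24.5% lay below and 32.1% above. None passed the test (smallest adjusted p = 0.0623 from limma), and 7 had an unadjusted p under 0.05 (50%, against 20.4% of all genes). *Tnfrsf8* encodes CD30, a receptor of activated lymphocytes and of some lymphomas. It had 10.97 and 11.09 with EtOH and 10.49 and 10.24 with 4OHT, the largest decrease in the family (log2 fold change −0.67, standard error 0.11, 1.59-fold). Its adjusted p was 0.0623, and it passed in 5 of the 11 alternatives without a block. *Tnfrsf18* encodes GITR, a costimulatory receptor abundant on regulatory T cells. It had 8.53 and 8.45 against 8.16 and 8.12, a change of −0.35 (adjusted p = 0.102 from limma).

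Among TRAF-binding receptors with higher 4OHT values, *Tnfrsf14*, the receptor HVEM that binds both LIGHT and the inhibitory receptor BTLA, had 7.48 and 7.43 with EtOH and 7.79 and 7.76 with 4OHT. The change was 0.32 (adjusted p = 0.113 from limma). *Tnfrsf13c*, the BAFF receptor, had 8.23 and 8.02 against 8.39 and 8.46, a change of 0.30 (adjusted p = 0.222 from limma) that was 0.20 without EtOH replicate 2. *Tnfrsf19*, the receptor TROY, had 7.93 and 7.97 against 8.15 and 8.17, a small shift of 0.21 between tight pairs (adjusted p = 0.227 from limma). None of these 3 overlapped between treatments.

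*Tnfrsf26* lies beside *Tnfrsf22* and *Tnfrsf23*, which encode decoy receptors that bind TRAIL, in a run of neighbouring genes on chromosome 7. It had 7.72 and 7.73 with EtOH and 8.47 and 8.70 with 4OHT, so that the lowest 4OHT value lay well above the highest EtOH value. The log2 fold change was 0.86 (standard error 0.10, 95% confidence interval 0.59 to 1.13, adjusted p = 0.0313 from limma). Here too the alternatives include the threshold of 0.1, the same fit, which *Tnfrsf26* had to pass. It passed in 8 of the 11 alternatives without a block. With 1 array left out it passed only without 4OHT replicate 1, but in those fits calls fell over all genes as well. Its change there ran from 0.74 to 0.97. *Tnfrsf22* had 6.47 and 6.55 against 6.41 and 6.34, a change of −0.13, and *Tnfrsf23* had 5.67 and 6.08 against 6.04 and 5.86, a change of 0.07. Neither neighbour passed the test (adjusted p = 0.432 and 0.848 from limma). The 3 genes are related in sequence, and whether their probe sets share signal was not tested. The soluble RANK ligand inhibitor osteoprotegerin, encoded by *Tnfrsf11b*, had a change of 0.17 (adjusted p = 0.384 from limma). The 14 receptors not described singly by rule, these included, had changes between −0.20 and 0.27. Groups were apart in 8 of them (57.1%), near the 56.6% of all genes.

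**Figure D3:**
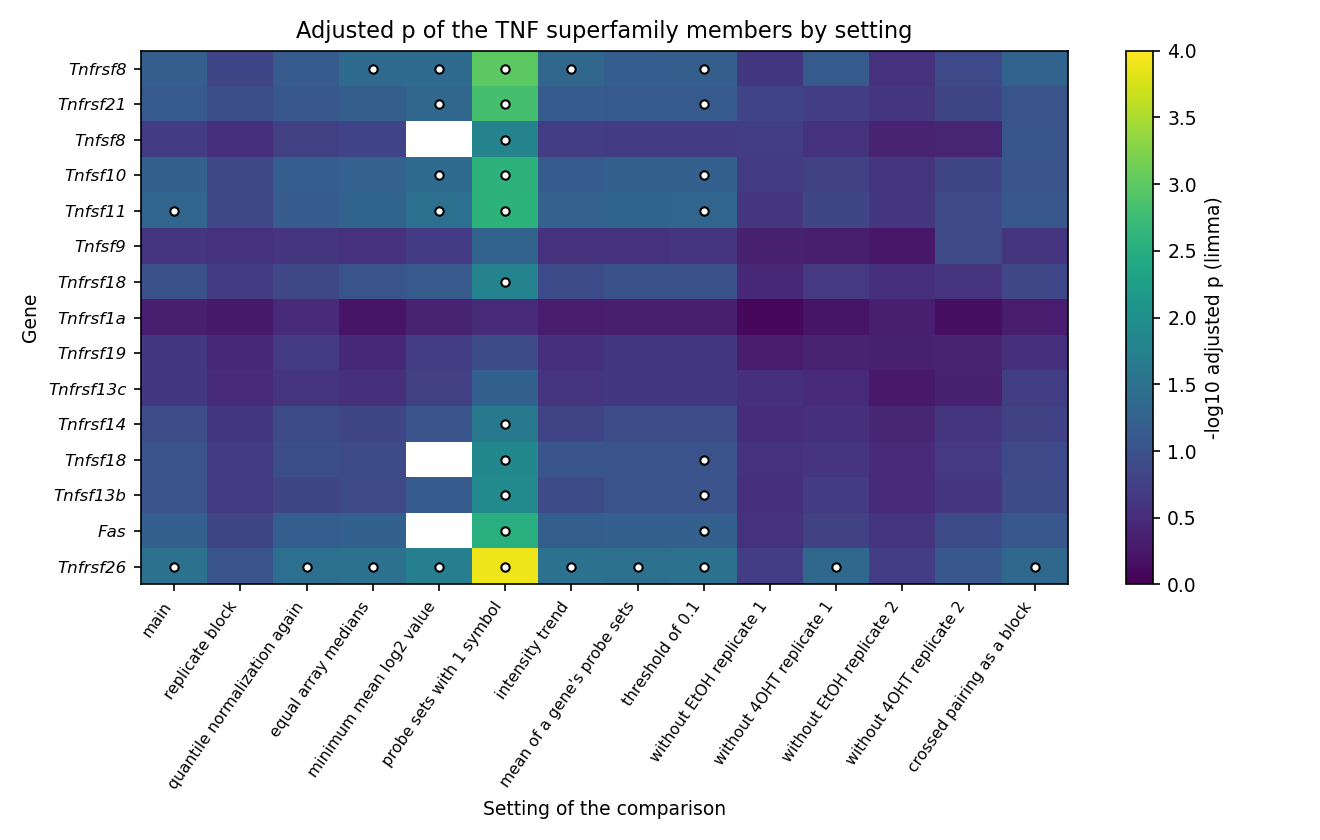
Colour gives −log10 of the limma adjusted p for the 15 members described singly (vertical axis) in the comparison as reported (main) and in 13 alternative settings (horizontal axis), and a white circle marks a call at the threshold of that setting. Tnfrsf26 is called in 9 of the 13 and Tnfsf11 in 3, and blank cells are genes below the minimum mean value.

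Ligands and their receptors are set beside each other here by their log2 fold changes. *Tnfsf8* and its receptor gene *Tnfrsf8* had changes of −0.58 and −0.67, and *Tnfsf13b* and *Tnfrsf13c* had 0.37 and 0.30. For these pairs both partners had the same sign with groups apart. *Tnfsf11* stood at −0.47 while *Tnfrsf11a*, which encodes its receptor RANK, was at 0.02 with overlapping groups. *Tnfsf10* was at −0.49 and *Tnfrsf10b* at −0.08. *Fasl* was at −0.06 and *Fas* at 0.47. *Tnfsf18* and *Tnfrsf18* had opposite signs, 0.36 and −0.35, as did *Tnfsf9* and *Tnfrsf9*, −0.35 and 0.15, *Tnfsf4* and *Tnfrsf4*, −0.15 and 0.27, and *Tnfsf14* and *Tnfrsf14*, −0.12 and 0.32. *Cd40lg* and *Cd40* were at 0.09 and 0.24, again with the same sign and groups apart. *Tnf* was at −0.27, with its receptor genes *Tnfrsf1b* at −0.20 and *Tnfrsf1a* at 0.14, all with groups apart. *Ltb* and *Ltbr* were at 0.06 and −0.01, and *Tnfsf15* and *Tnfrsf25* at 0.00 and 0.10, with overlapping groups. The differences between partners were not tested.

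Many genes of this family lie in clusters. In RefSeq gene order (GRCm38.p6), *Tnfsf4*, *Tnfsf18* and *Fasl* follow each other on chromosome 1 with changes of −0.15, 0.36 and −0.06. *Ltb*, *Tnf* and *Lta* follow each other on chromosome 17 with 0.06, −0.27 and 0.28. *Tnfsf15* and *Tnfsf8* on chromosome 4 were at 0.00 and −0.58, *Tnfrsf1b* and *Tnfrsf8* at −0.20 and −0.67, and *Tnfrsf4* and *Tnfrsf18* at 0.27 and −0.35. These are descriptions, with no test of a difference between neighbours.

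The 6 pathway lists hold family members outside the naming rule and shedding genes as well as genes downstream of the receptors. Of their 88 measured genes 2 fell and 1 rose, shares near the 2.99% and 1.23% of all genes. The gene that rose is itself a receptor of the family. *Nfkb2*, which encodes the p100 precursor of the non-canonical NF-κB pathway that RANK, CD40, the BAFF receptor and the lymphotoxin β receptor engage, fell from 9.32 and 9.27 to 8.28 and 8.30 (change −1.01 ± 0.072 standard error, limma adjusted p = 0.0126). It was the single call among 14 measured NF-κB subunits, inhibitors and kinases. *Tnfaip2*, named for its induction by TNF, fell from 7.28 and 7.36 to 6.64 and 6.61 (log2 fold change −0.70, adjusted p = 0.0244 from limma), the single call among 21 NF-κB target genes. The costimulatory receptor gene *Cd27*, a family member whose symbol is outside the naming rule, rose from 11.13 and 11.21 to 11.81 and 11.77 (log2 fold change 0.62, adjusted p = 0.0321 from limma), whereas its ligand gene *Cd70* was at −0.05. *Cd27* was the single call among 6 such members. With 1 array left out, *Nfkb2* was called only without 4OHT replicate 1, and *Tnfaip2* and *Cd27* in none of these 4 fits. In those fits calls fell over all genes as well.

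No gene passed the test (limma) among 28 adaptors, kinases and ubiquitin enzymes of the receptors, among 11 apoptosis genes downstream of death receptors or among 8 genes of ligand and receptor shedding. An unadjusted p under 0.05 was reached by 6, 4 and 3 of them, against 20.4% of all genes, and the medians were −0.05, −0.01 and −0.07. Among NF-κB genes 4 of 14 and among NF-κB targets 5 of 21 had an unadjusted p under 0.05. The shares of the adaptors (21.4%) and of the NF-κB targets (23.8%) are close to that background, and those of the NF-κB, apoptosis and shedding genes were 28.6%, 36.4% and 37.5%. At an adjusted p under 0.1 (limma), 1076 of all 19938 genes were lower and 502 higher. Of the 88 measured pathway genes, 9 were lower and 5 higher, the 3 called ones included. The genes given next are those of these that were not called, and the ones given by array were chosen after their values were seen. On the lower side, *Ngfr*, the low-affinity neurotrophin receptor, had 9.82 and 10.23 with EtOH and 9.12 and 9.0 with 4OHT (change −0.96, adjusted p = 0.056 from limma). The early response gene *Ier3* had 6.90 and 6.69 against 6.08 and 6.20 (change −0.65, adjusted p = 0.0538 from limma). Both had groups apart. On the higher side were *Cd69* (change 1.15, adjusted p = 0.0747 from limma) and the genes of 2 NF-κB inhibitors and 1 subunit. The inhibitor gene *Nfkbia* had 9.57 and 9.30 against 10.09 and 10.42 (change 0.82, adjusted p = 0.0801 from limma), and *Nfkbie* had 8.26 and 8.64 against 9.37 and 9.63, a change of 1.05 (adjusted p = 0.0539 from limma). *Rel*, which encodes the c-Rel subunit, had 7.40 and 7.64 against 8.20 and 8.46 (change 0.81, adjusted p = 0.0594 from limma). In *Nfkbia*, *Nfkbie*, *Rel* and *Cd69* the 4OHT arrays lay above the EtOH arrays. Also lower at this threshold were *Tnfaip3* (change −0.46, adjusted p = 0.0928 from limma), *Tab1* (−0.41), *Casp6* (−0.40), *Furin* (−0.47) and *Sppl2b* (−0.49).

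**Figure D4:**
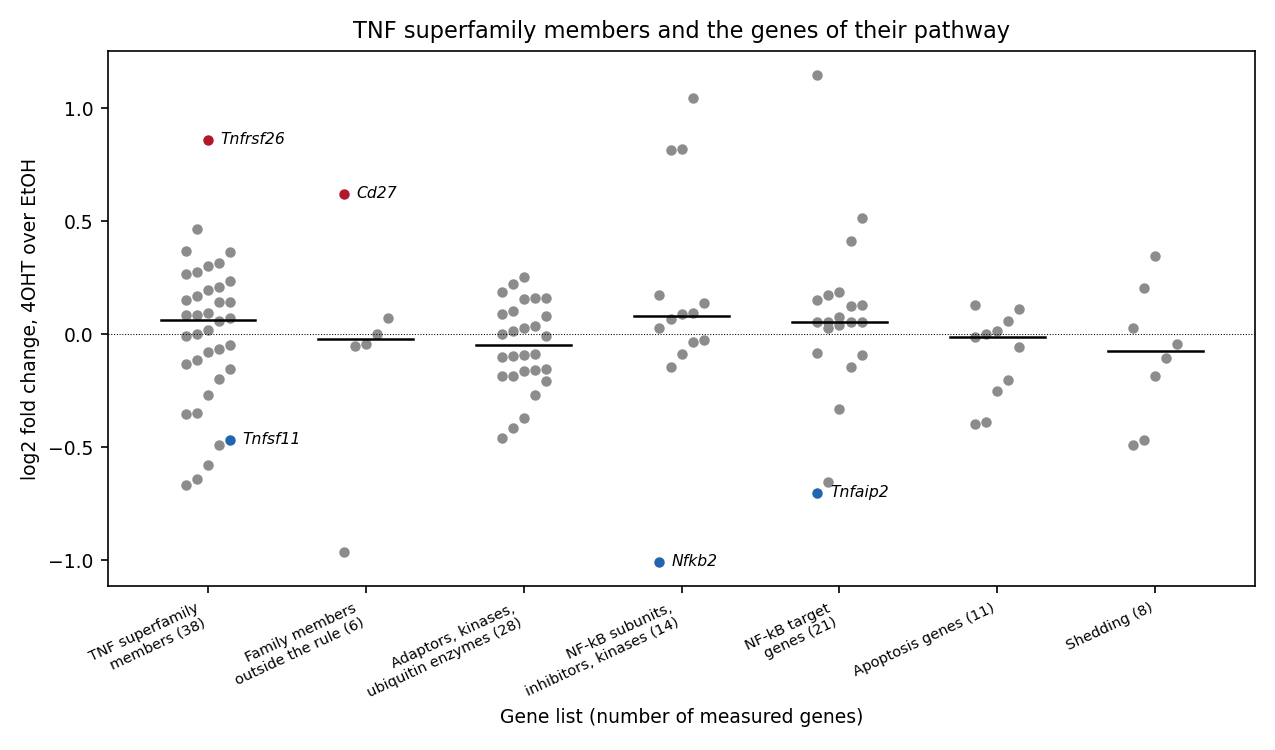
Log2 fold change (4OHT over EtOH, vertical axis) of every measured gene of the TNF superfamily and of 6 pathway lists (horizontal axis, number of genes in brackets), with a line at each list's median. Genes that fell (blue) or rose (red) in the limma test are named, and the medians lie within 0.1 of 0.

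The labelled cell type was checked against marker genes. By the mean of all 4 arrays, all 13 measured T-lineage markers lay above the median of the probe sets (7.13). *Cd8a* did so only through the 4OHT arrays, since its EtOH values were 6.74 and 6.45. Of the 13 markers, 3 rose and 1 fell. Their mean log2 level was 10.83 to 10.84 on the EtOH arrays and 11.48 to 11.50 on the 4OHT arrays. *Cd4*, *Cd8a* and *Cd8b1*, which mark later thymocyte stages, were the ones that rose, and the T-cell receptor component *Cd3d* fell. By the same mean, none of 7 B-cell markers, 1 of 10 myeloid, 2 of 8 natural killer and 3 of 8 stromal markers lay above that median. The natural killer marker *Prf1* did so only through the 4OHT arrays (7.06 and 6.68 with EtOH). The other natural killer marker above it, *Gzma*, was bright under both treatments (11.81 and 11.62 with EtOH, 11.83 and 12.25 with 4OHT). Among these other lists, the myeloid genes *Lyz2* (log2 fold change −1.24) and *Itgam* (0.68) were the only calls. The B-cell level was 5.52 to 5.57 with EtOH and 5.64 to 5.68 with 4OHT, the myeloid level 6.32 to 6.39 and 6.31, the natural killer level 6.09 to 6.22 and 6.33 to 6.36, and the stromal level 7.04 to 7.06 and 7.16 to 7.21. Of regulatory and activated T-cell markers, which often accompany GITR and CD30, 5 of 8 lay above the median and none was called (limma). Of the 5, *Cd69* lay above it only through the 4OHT arrays (6.92 and 6.46 with EtOH). An unadjusted p under 0.05 (limma) was reached by 4 of the 8 (50%, against 20.4% of all genes). Their level was 8.04 to 8.23 with EtOH and 8.32 to 8.37 with 4OHT. The part of these shifts in the results above was not tested. In such bulk RNA, fewer cells with a transcript and less transcript per cell cannot be told apart.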

How the data were processed

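RNA of 4 samples of ILC87-Ik1-ER cells was measured on Affymetrix mouse gene arrays. The deposited log2 values had been made by the authors with Affymetrix Expression Console 1.1 and RMA (submitters' processing notes), which equalises the distribution of signals between arrays and so cannot show a change shared by most genes. For the genome build of the probe sets, the sources used here give none. From these values all 35556 probe sets were fitted in R 4.3.3 with limma 3.58.1 (lmFit, eBayes, two-sided, no filter, no block), with 2 residual and 2.66 prior degrees of freedom, with Benjamini-Hochberg adjustment over all of them. The scripts were tested on simulated data. An exact permutation test of 2 against 2 arrays cannot go below p = 0.33. The number of arrays limits the precision. EtOH arrays correlated at r = 0.996 and 4OHT arrays at 0.994 across probe sets, against 0.989 to 0.990 between treatments.

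Symbols come from the array annotation, and 21698 of 21789 probe sets with 1 symbol were matched to RefSeq (GRCm38.p6) by Entrez number. Where a gene had several, the brightest by mean was used. Described singly were called members, members with groups apart and a log2 change of at least 0.3, and members with a mean over 8, with up to 4 called genes of each list. The members, the 12 gene lists and the rules were chosen with earlier results of these data known. The alternatives were the replicate block, equal array medians, a repeated quantile normalization, a mean of at least 6, probe sets with 1 symbol alone, an intensity trend, averaging the probe sets of a gene, a threshold of 0.1 and each array left out.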

Additional observations from a re-analysis of the deposited data

How the results depend on the processing

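Every member described singly kept its sign in all settings run, but the calls moved. Against 1 member lower, 1 higher, 2 pathway genes lower and 1 higher as reported, the replicate block left 0, 0, 0 and 0 (limma, with 13 members at an unadjusted p under 0.05). Over all genes the block left 25 lower and 5 higher, against 597 and 246 as reported. The share of all genes at that unadjusted p was not counted under the block. Labels give the arrays only a shared number, and the differences between arrays 1 and 2 correlated at −0.134 between treatments. A crossed pairing, chosen after seeing the data, gave 0 members lower, 1 higher, 3 pathway genes lower and 2 higher. Over all genes that pairing gave 389 lower and 146 higher.

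Repeated quantile normalization gave 0 members lower and 2 pathway genes higher, averaging the probe sets of a gene gave 0 members lower, and an intensity trend gave 2 pathway genes higher. Equal array medians gave 4 pathway genes lower and 2 higher. Over all genes these settings gave 545 to 678 lower and 229 to 280 higher. Under equal medians and under the trend the 1 lower member was *Tnfrsf8* (adjusted p = 0.0401 and 0.0478) and no longer *Tnfsf11* (0.0514 and 0.0546; limma). A minimum mean of 6, which leaves 30 members, gave 4 members lower, with 4 pathway genes lower and 4 higher. All genes left by that minimum gave 799 lower and 350 higher. Probe sets with 1 symbol alone, where the prior degrees of freedom are 8.44, gave 6 members lower and 5 higher, with 11 pathway genes lower and 8 higher. Calls rose over all genes as well in that setting, to 1739 lower and 1002 higher. A threshold of 0.1 gave 4 members lower and 4 higher, with 9 pathway genes lower and 5 higher. Over all genes that threshold gave 1076 lower and 502 higher.

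With 1 array left out, which leaves 1 residual degree of freedom and assumes that the lone array varies like the others, 0 members were lower, 0 to 1 higher, 0 to 1 pathway genes lower and 0 higher (limma), with 11 to 14 members at an unadjusted p under 0.05. Only the fit without 4OHT replicate 1 kept calls, *Tnfrsf26* and *Nfkb2*. Over all genes calls fell in these fits too, so that a lost call is not particular to the members or pathway genes. The cause of these differences was not tested. Without detection calls, dim members may be at background.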

Other observations

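The ligands APRIL and TWEAK, encoded by *Tnfsf13* and *Tnfsf12*, share 1 probe set with 3 symbols and are therefore not among the 38 members. It had log2 values of 6.55 and 6.45 with EtOH and 6.55 and 6.57 with 4OHT, a change of 0.06 (adjusted p = 0.723 from limma), and the genes behind it cannot be told apart.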
